A study of Mus musculus with 54 samples.

Results

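The comparison described here asks what Akita diabetes changed in late proximal tubules that had no SGLT1 and worked under an SGLT2 inhibitor. It set 6 libraries of diabetic Sglt1 knockout mice on dapagliflozin against 6 libraries of nondiabetic Sglt1 knockout mice on dapagliflozin, chosen by their labels of genotype and treatment. These are 12 of the 52 libraries with values in the series. Of the 19068 rows of the table, the 15424 that passed a filter on mean level entered the test. Both groups were male DBA mice aged 14 weeks, homozygous for loss of Sglt1 (Slc5a1) and given diet with dapagliflozin (10 mg per kg) over 2 weeks. The Akita group carried 1 mutant copy of the insulin gene Ins2 (Ins2 Akita/+), which damages the insulin-producing beta cells and models type 1 diabetes, and the nondiabetic group were Ins2+/+ littermates. From each sample 70 to 80 tubules that bound the lectin LTL and lacked SGLT2 protein were cut out by laser, and total RNA was sequenced. The other libraries used for comparison came from Akita and nondiabetic mice that were wild type for Sglt1 or given vehicle. The fit also held 5 libraries of wild-type Akita mice on semaglutide, an agonist of the GLP-1 receptor, which entered the filter and the estimate of spread but no comparison. Whether every sample had an animal of its own is not stated, so p-values measure the spread between these samples. Fewer cells of a type and less RNA per cell cannot be told apart in such samples.

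Glucose filtered by the kidney is taken back mostly by SGLT2 in the early proximal tubule, and what remains is taken up by SGLT1 in the late part, the S3 segment. In diabetes the filtered load is larger. When SGLT2 is blocked more glucose reaches S3, and without SGLT1 the brush border of S3 lacks its main route for glucose entry. Inside cells, carbohydrate is sensed by the transcription factors ChREBP and MondoA, which bind with their partner Mlx to a pair of E-box-like sites called a carbohydrate response element. The best known target of ChREBP is Pklr, the pyruvate kinase gene of liver, kidney and red blood cells, whose enzyme makes pyruvate at the end of glycolysis.

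Pklr is among the leading genes by rank below, none of which passed, and its promoter is shown. RefSeq lists 2 start sites for it, and values per gene do not show which was used. The window of 300 bases around the downstream start (GRCm38.p6, chr3:89136373-89136672, plus strand, 250 bases before to 50 after the start) holds the letters of a carbohydrate response element, in capitals, 170 to 154 bases before the start.

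Pklr: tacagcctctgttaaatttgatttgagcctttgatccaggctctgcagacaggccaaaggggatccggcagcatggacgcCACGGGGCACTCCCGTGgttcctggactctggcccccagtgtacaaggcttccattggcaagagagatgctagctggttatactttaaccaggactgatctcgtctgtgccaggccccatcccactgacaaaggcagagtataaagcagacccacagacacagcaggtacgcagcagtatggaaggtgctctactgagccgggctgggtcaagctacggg

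The search was for CACGNG, 5 bases of any kind and CNCGTG, which reads the same on both strands. It matched 15 of 32851 RefSeq promoter windows (0.0457%), belonging to 14 of 27025 genes. Of the 16 genes on the list of ChREBP and MondoA factors and targets, 14 had a window and Pklr alone held the letters in this form. A match describes the letters and not binding, and other forms of the element were not searched.

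The 12 libraries held little Slc5a1 RNA in both groups, though no wild-type level is set beside it here. Slc5a1 was at or below 1.34 TPM (transcript abundance scaled to gene length and library size) in every one. Slc7a13, a cystine carrier of S3, ranged from 223 to 1478 TPM. Ins2 has no value to check, since it has no row in the table. Slc5a2, which marks the early segments and was selected against, ranged from 5.33 to 191 TPM. A library of each group stood apart. Nondiabetic replicate 3 had 191 TPM of Slc5a2 and a median correlation of 0.873 with the other 11 libraries. Akita replicate 4 had 163 TPM and a correlation of 0.901. Values without 1 or both of these are given beside results that they moved. Loop of Henle RNA was present throughout, with Umod between 319 and 768 TPM, but not evenly. The summed thick ascending limb markers reached 3627 TPM in nondiabetic replicate 3 and lay between 735 and 1706 TPM in the other libraries. Nondiabetic replicate 3 also had the lowest sum of S3 markers, 1289 TPM. Correlations across genes had the same median, 0.925, over the 30 pairs within a group and the 36 pairs between groups. The sum of TPM (1370000 ± 179000 in Akita and 1360000 ± 237000 in nondiabetic libraries), the percent of mitochondrial rRNA (31.3 ± 1.81 and 33 ± 6.87) and the number of genes with a value (17800 ± 417 and 17600 ± 354) differed by less than their spread (SD). Exact two-sided permutation tests of these measures gave p = 0.968, 0.569 and 0.478, where 0.00216 is the smallest that 6 against 6 allows.

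No gene passed between the Akita and nondiabetic groups. With limma, 0 of 15424 tested genes (0%) had an adjusted p under 0.05, and the smallest adjusted p was 0.743. At an unadjusted p under 0.05 there were 790 genes (5.12%), of which 481 (3.12%) were higher and 309 (2%) lower in the Akita group. The groups did not overlap for 17 genes (0.11%) that were higher and 14 (0.0908%) that were lower. A random split of 6 against 6 values without ties leaves no overlap, in either direction, with probability 0.00216. Lack of overlap therefore does not by itself set a gene apart here. The log2 difference was above 0 for 8539 genes (55.4%) and below 0 for 6883 (44.6%), with a median of 0.03. The 95% interval of a gene reached a median of log2 0.50 to each side, and for 92.9% of genes it reached less than 1. These intervals are not adjusted for the number of genes tested. Changes smaller than that were therefore hard to detect for many genes, and larger ones could also fail the adjusted test. All the single genes that follow are values that did not pass, named by a rule of rank given with the processing.

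The same test of diabetes in the other backgrounds, which share no library with this one, called 60 genes (0.389%) in wild-type mice on vehicle, 52 of which rose and 8 fell. It called 0 (0%) in knockout mice on vehicle. In wild-type mice on dapagliflozin over 11 libraries, it called 1 gene (0.00648%), the predicted gene Gm45011, which differed by log2 1.01 (SE 0.45) here. Of the 15424 tested genes, 1575 had an unadjusted p under 0.05 in wild type on vehicle and 1026 in knockout on vehicle. There were 533 in wild type on dapagliflozin, against 790 here. The difference between the diabetes changes was tested directly, and none passed in limma. Against knockout on vehicle, 0 genes passed (0%) and 602 (3.9%) had an unadjusted p under 0.05. Against wild type on dapagliflozin, 0 passed (0%) and 504 (3.27%) had such a p. Against wild type on vehicle, 0 passed (0%) and 721 (4.67%) had such a p, with a smallest adjusted p of 0.277. A call in wild type on vehicle and none here is thus not shown to be a difference between the backgrounds.

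Of the 10 genes named as higher in mean, Pklr (ENSMUSG00000041237, chr3:89136142-89146784, GRCm38) had the highest mean level in the Akita group. Its lowest, median and highest values were 31.3, 46.4 and 73 TPM in the nondiabetic group and 79.6, 98 and 159.9 TPM in the Akita group. Every Akita library was above every nondiabetic one. The ratio of the means was 2.10, from 49.4 ± 15.6 to 103.9 ± 29.9 TPM (SD, n = 6 each), and the log2 difference was 1.07 (SE 0.31; limma adjusted p = 0.743). Without the pair of libraries that stood apart it was 0.94. In the other backgrounds the log2 difference of Pklr was 1.37 (SE 0.31) in wild type on vehicle, where it rose, 1.32 in knockout on vehicle and 0.63 in wild type on dapagliflozin.

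Afm, the vitamin E-binding protein afamin (chromosome 5), spanned 17.6 to 43.4 TPM in the nondiabetic group (median 22.8) and 31.3 to 48.8 TPM in the Akita group (median 38.1). Its log2 difference was 0.66 (SE 0.20), and 1 nondiabetic library reached into the Akita range. The other 3 backgrounds gave 1.35, 0.65 and 0.67 for wild type on vehicle, knockout on vehicle and wild type on dapagliflozin. Tbc1d31, a protein of the centriolar satellites (chromosome 15), ran from 2.48 to 4.52 TPM in nondiabetic and from 5.03 to 9.75 TPM in Akita libraries, with no overlap and a log2 difference of 0.87 (SE 0.24). It also rose in wild type on vehicle, by log2 1.09. Fkbp14, a prolyl isomerase of the endoplasmic reticulum that acts on collagens, ran from 2.09 to 5.57 TPM and from 5.66 to 14.4 TPM, again with no overlap.

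The remaining genes of this rank have various roles. Ddx21, an RNA helicase of ribosomal RNA production, was at 23.4 ± 4.25 TPM in nondiabetic and 34.2 ± 4.88 TPM in Akita libraries (SD, n = 6 each). Polr2b, the second subunit of RNA polymerase II, was at 25.3 ± 3.85 and 39.7 ± 8.90 TPM. Pelp1, which takes part in ribosome maturation, was at 8.34 ± 2.02 and 13.1 ± 3.81 TPM, and Gon7, a subunit of the complex that makes the t6A base of transfer RNA, was at 3.82 ± 1.96 and 9.82 ± 4.11 TPM. Vipas39, which acts in apical protein sorting, was at 22.7 ± 5.70 and 32.9 ± 6.04 TPM. The groups overlapped in each of these 5 genes. For 4 of them, Ddx21, Polr2b, Pelp1 and Vipas39, the log2 difference in the other 3 backgrounds lay between -0.09 and 0.25. Ndor1, a flavoprotein of iron-sulfur cluster assembly, has 2 rows under its symbol, so reads may be split between them and its value of log2 1.66 is uncertain.

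**Figure D1:**
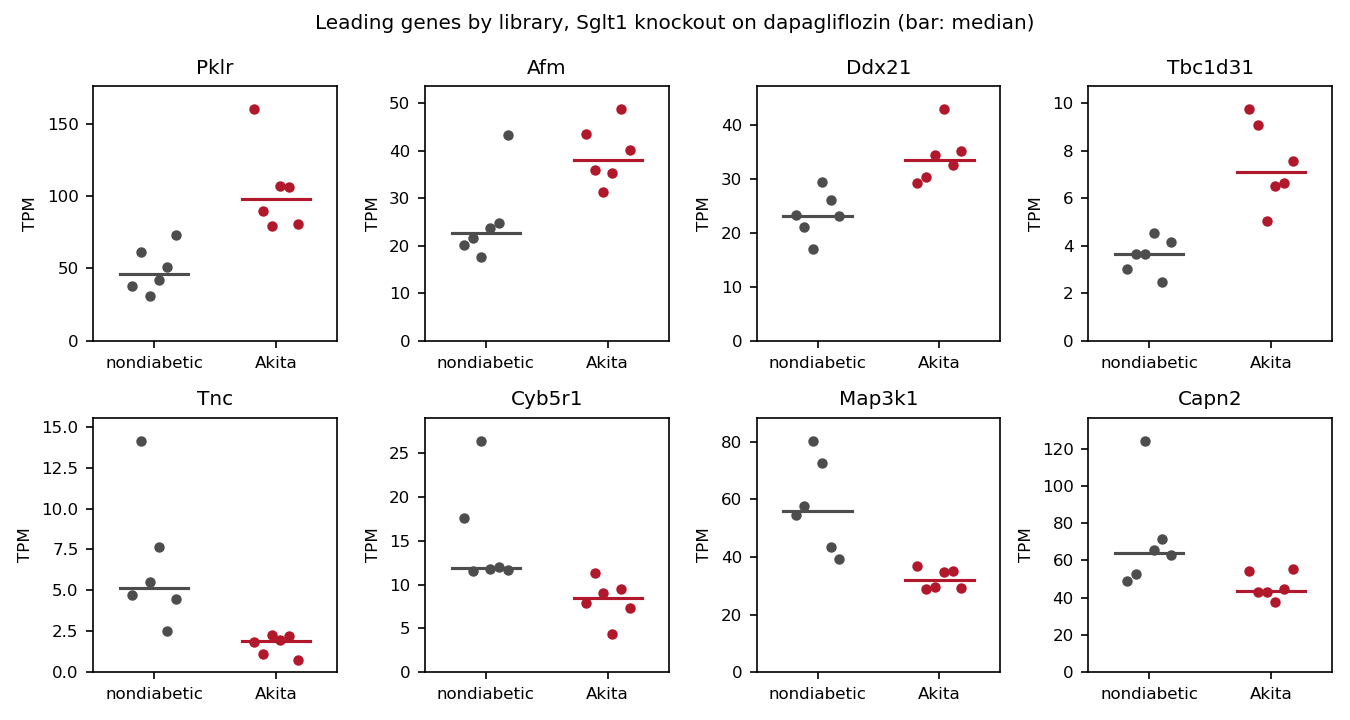
TPM of 8 genes in each of the 12 libraries (linear axes from 0), with grey points for nondiabetic, red points for Akita and a bar at each group's median. Pklr and Tbc1d31 are higher and Tnc, Cyb5r1 and Map3k1 lower in every Akita library than in every nondiabetic one, while Afm, Ddx21 and Capn2 overlap.

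Of the 10 genes named as lower in mean, Tnc (chr4:63959785-64047015) encodes the matrix protein tenascin C. Its lowest, median and highest values were 2.52, 5.13 and 14.1 TPM in nondiabetic and 0.768, 1.92 and 2.31 TPM in Akita libraries. The groups did not overlap, and the log2 difference was -1.35 (SE 0.35). It was below 0 in each other background too, at -0.48, -0.47 and -0.69. Cyb5r1, a cytochrome b5 reductase, was between 11.6 and 26.4 TPM in nondiabetic and between 4.33 and 11.4 TPM in Akita libraries, a log2 difference of -0.78 (SE 0.21). In the other backgrounds its difference lay between -0.10 and 0.01. Without the pair of libraries that stood apart, the difference of Cyb5r1 was -0.47, and they held its highest nondiabetic and its lowest Akita value.

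The other genes named as lower in mean have various roles. Map3k1, a kinase upstream of the JNK pathway, was at 58 ± 16.1 TPM in nondiabetic and 32.4 ± 3.47 TPM in Akita libraries, with no overlap. Capn2, the large subunit of m-calpain, was at 71.03 ± 27.3 and 46.3 ± 6.97 TPM, and Uba7, the enzyme that activates the interferon-induced modifier ISG15, at 23.7 ± 10.4 and 10.2 ± 3.60 TPM. The log2 difference of Capn2, -0.55, was -0.32 without the pair that stood apart. Slc4a7, a sodium bicarbonate cotransporter, was at 21.9 ± 8.31 and 13.2 ± 1.61 TPM. Cped1 was at 17.9 ± 5.14 and 8.87 ± 1.83 TPM. Tbc1d7, a subunit of the TSC complex that restrains mTORC1, was at 8.45 ± 2.91 and 3.41 ± 1.26 TPM, and Prr5l, a binding partner of mTORC2, at 8.48 ± 11.2 and 0.783 ± 0.805 TPM. Nondiabetic replicate 3 held 30.6 TPM of Prr5l, and its log2 difference of -1.86 was -1.26 without the pair that stood apart. The difference of Tbc1d7 was log2 -1.10 (SE 0.30) here and 0.62 (SE 0.30) in knockout on vehicle. That pair of changes differed at an unadjusted level and did not pass when adjusted. Snord58b, a small nucleolar RNA, was listed at 0 in all 6 Akita libraries and in nondiabetic replicate 3. In the other 5 nondiabetic libraries it was between 21.3 and 30.3 TPM. The number of reads behind these values is unknown.

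The 60 genes called in wild type on vehicle were followed into this comparison. They were chosen for their size there, so their wild-type values are high partly by choice. Here the 52 that rose there had a median log2 difference of 0.41, against 1.45 in wild type on vehicle, 0.52 in knockout on vehicle and 0.54 in wild type on dapagliflozin, and 45 of the 52 were above 0. The 8 that fell there had a median of -0.27, against -1.44, and 7 were below 0. All 60 differences were smaller in size than in wild type on vehicle. For 53 the wild-type value lay outside the 95% interval of the difference measured here, which leaves out the error of that value. The 7 for which it lay inside, named after their values were seen, were Pklr, Tbc1d31, Folh1, Gsta3, the interferon-induced GTPase Gbp4 and the predicted genes Gm44433 and Gm44235. At an unadjusted p under 0.05 there were 18 of the 60, against 5.12% of all tested genes, and 0 of the 60 passed any test of the difference between backgrounds. The 60 hold Ctnna2 and 6 gene models inside it, and the 18 hold Ctnna2 and 5 of these models. They are not separate evidence, as described below, so these counts overstate the number of independent genes.

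**Figure D2:**
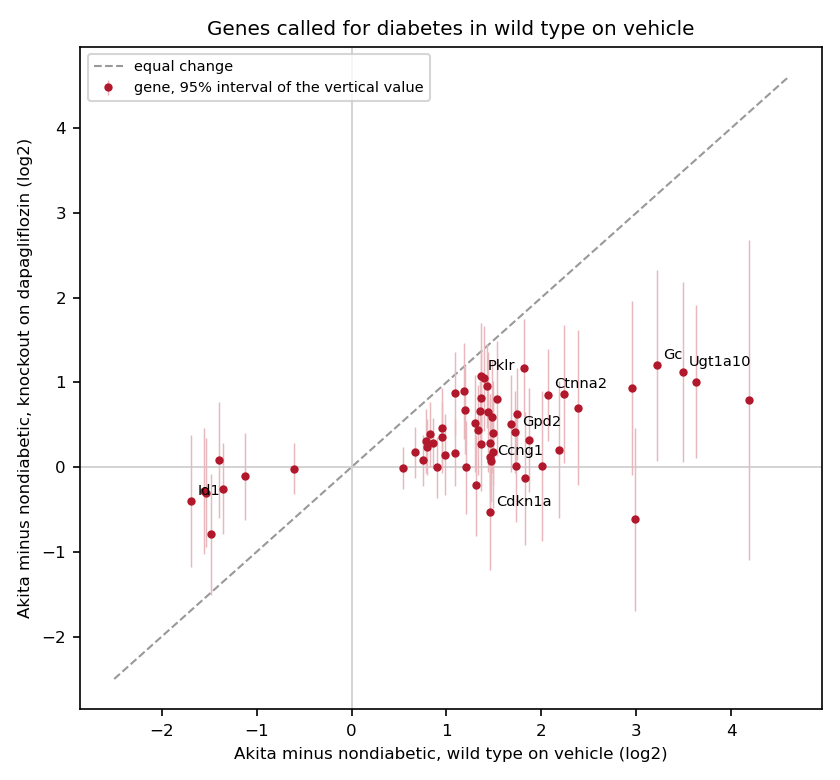
The 60 genes that passed for diabetes in wild type on vehicle, with the log2 difference in that background on the horizontal axis and the difference in knockout on dapagliflozin, with its 95% interval, on the vertical axis. Every point lies closer to 0 vertically than the dashed line of equal change, and 8 points lie on the opposite side of 0.

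Among the first 10 of these genes by adjusted p, the values here ranged widely. Ctnna2, a catenin that joins cadherins to actin, had lowest, median and highest values of 3.71, 7.44 and 13.6 TPM in nondiabetic and 10.99, 14.9 and 20.7 TPM in Akita libraries. The groups overlapped. Its log2 difference was 0.85 (SE 0.27) here, 2.07 in wild type on vehicle, 0.57 in knockout on vehicle and 0.87 in wild type on dapagliflozin. Gpd2, the mitochondrial glycerol-3-phosphate dehydrogenase of the glycerol phosphate shuttle, was at 89.7 ± 36.6 TPM in nondiabetic and 111.7 ± 12.9 TPM in Akita libraries (SD, n = 6 each). Its difference was 0.41 (SE 0.24) here and 1.73 (SE 0.24) in wild type on vehicle, and those 2 differed by -1.31 (SE 0.34; limma adjusted p = 0.64). Without the pair of libraries that stood apart, Gpd2 differed by 0.22. Ccng1, the p53-induced cyclin G1, had medians of 43 and 43.9 TPM and a difference of 0.07 (SE 0.24), which was -0.001 without that pair. In wild type on vehicle it rose by log2 1.47.

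Mdm2, the ubiquitin ligase that degrades p53, ran from 44.8 to 66 TPM in nondiabetic and from 51.2 to 88.3 TPM in Akita libraries, a difference of 0.28 (SE 0.15) against 0.86 in wild type on vehicle. Adap1, an Arf-directed GTPase activator, differed by 0.17 against 1.09, or by 0.27 without the pair of libraries that stood apart. Of lower level were Gc, Fam171b and Ugt1a10. Gc, the vitamin D-binding protein, had medians of 1.41 and 3.17 TPM, and Fam171b of 0.487 and 1.25 TPM. Their log2 differences of 1.20 and 0.63 stood beside 3.22 and 1.74 in wild type on vehicle. Ugt1a10, a glucuronosyltransferase, was listed at 0 in most nondiabetic libraries and had a median of 1.86 TPM in the Akita group. Its exons are shared within the Ugt1a cluster, which makes its values uncertain.

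Ctnna2 spans chr6:76881637-77979699 (GRCm38, GENCODE vM21), and 7 further tested genes lie inside it, on its strand and outside its exons. All 7 are unproven gene models (TEC). Of these, 6 passed in wild type on vehicle. A read that falls in such a model could also come from unspliced RNA of Ctnna2, so these 6 and Ctnna2 are not separate evidence. Here 6 of the 7 were above 0, and 5 had an unadjusted p under 0.05, against 5.12% of all tested genes. The 7 log2 differences ran from -0.47 to 1.17 with a median of 0.86, beside the 0.85 of Ctnna2. Gm44433 ran from 0.951 to 2.11 TPM in nondiabetic and from 3.47 to 5.71 TPM in Akita libraries, with no overlap. These gene models were looked at after their values were seen.

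The genes of polyol and fructose metabolism, which turn glucose into sorbitol and fructose and burn fructose, were all slightly higher in mean in the Akita group. All 9 tested members were above 0 (55.4% of all genes were), 0 passed, and the median log2 difference was 0.28 (0.03 over all tested genes). At an unadjusted p under 0.05, 1 was higher, while 3.12% of all tested genes were higher at that level. Sord, sorbitol dehydrogenase, had lowest, median and highest values of 267, 331 and 429.9 TPM in nondiabetic and 320.3, 422 and 502 TPM in Akita libraries. Tkfc, triokinase, was at 302 ± 60.7 and 397 ± 90.8 TPM, a difference of log2 0.39 (SE 0.19). Slc2a5, the fructose carrier GLUT5, ran from 93.3 to 410.3 TPM and from 238 to 829 TPM, with its lowest value in nondiabetic replicate 3 and its highest in Akita replicate 1. The log2 difference of Slc2a5, 0.65 (SE 0.35), was 0.38 without the former and 0.42 without the latter, and that of Tkfc was 0.25 without the pair of libraries that stood apart. The list median was 0.59 in wild type on vehicle, 0.57 in knockout on vehicle and 0.14 in wild type on dapagliflozin. Without the pair of libraries that stood apart it was 0.24 here, with 7 of 9 above 0.

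Of the 15 tested ChREBP and MondoA factors and targets, 13 were above 0 and 0 passed, with a median of 0.19. After Pklr came Mlx, the shared partner of both factors, with a difference of 0.54 (SE 0.25), Gpd1, the cytosolic glycerol-3-phosphate dehydrogenase, with 0.42 (SE 0.21), and Tkt, transketolase, with 0.28 (SE 0.16). Mlxip, which encodes MondoA and was named after its value was seen, was below 0 at -0.31 (SE 0.24), or -0.11 without nondiabetic replicate 2. The difference of Mlx was 0.17 without nondiabetic replicate 3, and without both libraries that stood apart it was 0.12 for Mlx and 0.42 for Tkt. The list median was 0.29 without nondiabetic replicate 5. The mean of the list in log2(TPM + 1) was 4.74 to 5.23 in nondiabetic and 5.12 to 5.37 in Akita libraries, so the groups overlapped. Its median was 0.21, 0.18 and 0.20 in the other 3 backgrounds.

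Among the 12 tested sugar carriers 7 were above 0, with a median of 0.06 that changed sign under 1 alternative, against 0.53 in wild type on vehicle. Slc5a10, the fructose and mannose carrier SGLT5 and the most abundant of them, was at 724 ± 289.8 TPM in nondiabetic and 839.7 ± 285.9 TPM in Akita libraries. Its difference was 0.27 (SE 0.28), against 1.37 in wild type on vehicle and 1.02 in knockout on vehicle. The difference of Slc5a10 here was 0.05 without nondiabetic replicate 3 and 0.11 without Akita replicate 1. Slc2a2, the basolateral carrier GLUT2, differed by 0.35 (SE 0.32). Slc2a1, the basolateral carrier GLUT1 of S3, was lower in mean, with 15.6, 19.5 and 41.8 TPM in nondiabetic and 9.46, 15.4 and 17.7 TPM in Akita libraries as lowest, median and highest. Its log2 difference of -0.59 (SE 0.20) had a limma adjusted p of 0.865.

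**Figure D3:**
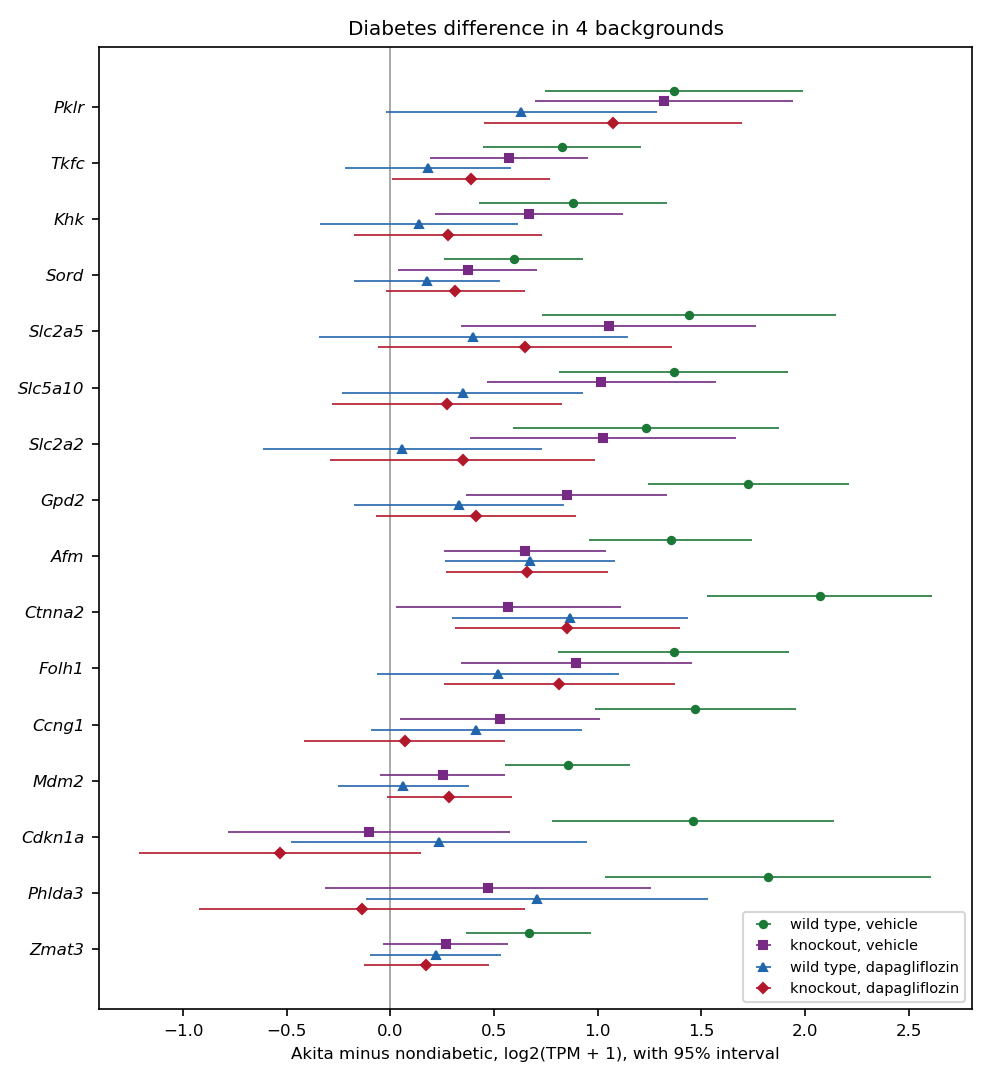
Log2 difference between Akita and nondiabetic libraries, with its 95% interval from limma, for 16 genes in 4 backgrounds. The red diamonds are knockout on dapagliflozin, where Pklr is at 1.07 and Ccng1 at 0.07, and the green circles are wild type on vehicle, where they are at 1.37 and 1.47.

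Lists of central metabolism outside the sugar routes had medians between 0.02 and 0.21. Gluconeogenesis had 10 of 13 members above 0 and a median of 0.11, with Slc37a4, the glucose-6-phosphate carrier, at 127 ± 36.7 and 165 ± 20.8 TPM, and Pck2, the mitochondrial PEP carboxykinase, lower in mean at 6.91 ± 2.12 and 4.31 ± 2.37 TPM. Glycolysis had a median of 0.02, the citric acid cycle 0.09, the reducing-equivalent shuttles 0.12, ketone and monocarboxylate handling 0.17 and fatty acid oxidation 0.11, of which those of glycolysis and fatty acid oxidation changed sign under 8 and 2 of 24 alternatives. Over these alternatives the medians ranged from 0.01 to 0.17 for gluconeogenesis, 0.02 to 0.15 for the citric acid cycle, 0.05 to 0.19 for the shuttles and 0.02 to 0.25 for ketone handling, and without nondiabetic replicate 3 the log2 difference of Slc37a4 was 0.27 in place of 0.43. Cholesterol and fatty acid synthesis had 12 of 18 above 0 and a median of 0.21, or 0.05 without nondiabetic replicate 3, against -0.02 in wild type on vehicle. No member of these lists passed.

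Targets of p53, the DNA damage response factor, were mostly not higher in mean. Of 15 tested members 5 were above 0 and 0 passed, with a median of -0.14. The median was 0.68 in wild type on vehicle, where 12 of 15 were above 0 and 5 passed, 0.25 in knockout on vehicle and 0.06 in wild type on dapagliflozin. The 5 that passed there, Ccng1, Mdm2, Cdkn1a, Phlda3 and Zmat3, had differences of 0.07, 0.28, -0.53, -0.14 and 0.17 here. Cdkn1a, the cell cycle inhibitor p21, had lowest, median and highest values of 0.777, 2.59 and 4.15 TPM in nondiabetic and 0.641, 1.41 and 1.87 TPM in Akita libraries. Sesn2, a stress-induced restraint on mTORC1, was at 10.46 ± 4.76 and 7.24 ± 2.55 TPM, and its log2 difference of -0.43 was -0.28 without nondiabetic replicate 3. That of Phlda3 ranged from -0.38 to 0.10 as single libraries were left out and was -0.54 without the pair that stood apart. The groups overlapped in every one of these genes, and no difference between the backgrounds passed for any of them.

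Detoxification genes were mostly slightly higher in mean. Of the 18 tested NRF2 targets and glutathione enzymes 16 were above 0, with a median of 0.20 and 0.43 in wild type on vehicle. Gsta3, a glutathione transferase, had lowest, median and highest values of 6.39, 11.5 and 19.6 TPM in nondiabetic and 18.6, 20.1 and 27.9 TPM in Akita libraries, and 1 nondiabetic library reached the Akita range. Its log2 difference was 0.90 (SE 0.28), against 1.19 in wild type on vehicle, where it rose. Gsr, glutathione reductase, differed by 0.46 (SE 0.24) and G6pdx, which supplies its NADPH, by 0.34 (SE 0.17). Glucuronidation and sulfation had 14 of 15 above 0 and a median of 0.23, with Ugdh, which makes the UDP-glucuronate that these enzymes use, at 151 ± 50.2 and 216 ± 46.6 TPM. Of the organic ion carriers 11 of 14 were above 0, with Abcc2, the apical exporter MRP2, at 236 ± 98.2 and 356 ± 66.6 TPM. The proximal tubule cytochromes P450 had 9 of 14 above 0 and a median of 0.20, which was 0.04 without the pair of libraries that stood apart and -0.01 without nondiabetic replicate 3 alone. Without that library the median was also smaller for glucuronidation and sulfation, at 0.05 with 11 of 15 above 0, for NRF2 targets and glutathione enzymes, at 0.12, and for organic anion and cation transport, at 0.09. The log2 difference without it was 0.19 for G6pdx, 0.37 for Ugdh in place of 0.56, and 0.42 for Abcc2 in place of 0.71.

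Genes of the apical surface were also mostly above 0, by less without that pair. All 11 tested brush-border peptidases were above 0, with a median of 0.22, which was 0.06 without the pair and 0.03 without nondiabetic replicate 3 alone. Folh1, a folate-releasing carboxypeptidase, ran from 9.76 to 22.7 TPM in nondiabetic and from 24.9 to 30.8 TPM in Akita libraries, with no overlap and a difference of 0.82 (SE 0.28). It rose by log2 1.37 in wild type on vehicle. All 12 tested genes of endocytosis by megalin and cubilin were above 0 with a median of 0.17, or 0.07 with 9 of 12 above 0 without the pair. Nondiabetic replicate 3 bore on this group of lists: without it the median was 0.02 for endocytosis by megalin and cubilin, 0.06 for renin-angiotensin and 0.08 for amino acid transport. The renin-angiotensin genes had 7 of 9 above 0 (median 0.17), amino acid carriers 12 of 16 (0.22), and S3 markers 8 of 10 (0.12, which changed sign under 1 alternative). Carriers of sodium, protons, bicarbonate and phosphate had 8 of 16 above 0 and a median of 0.01, which changed sign under 7 alternatives. Slc9a8, the sodium-proton exchanger NHE8, was lower in mean at 239.8 ± 91.6 and 144 ± 27.0 TPM. The log2 difference of Slc9a8 was -0.65 (SE 0.28) here and between -0.98 and -0.63 in the other 3 backgrounds. The proximal tubule transcription factors had 8 of 12 above 0 and a median of 0.09, which changed sign under 1 alternative. Nr1h4, the bile acid receptor FXR, was at 52.4 ± 4.92 and 69.03 ± 9.54 TPM.

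Transcripts encoded by mitochondrial DNA, which are subunits of the respiratory chain, were lower in mean log2(TPM + 1). All 13 were below 0, 0 passed, and the median was -0.34, against 0.56 in wild type on vehicle, 0.69 in knockout on vehicle and -0.07 in wild type on dapagliflozin. For mt-Nd4l this rested on values listed at 0, in Akita replicates 3 and 4 and in nondiabetic replicate 3. Its other values were 899.4 to 1356 TPM in Akita and 237.3 to 1555 TPM in nondiabetic libraries, and its mean TPM was higher in the Akita group. mt-Co3, a subunit of cytochrome c oxidase, had lowest, median and highest values of 812, 1399 and 1931 TPM in nondiabetic and 559, 705 and 1539 TPM in Akita libraries, with a difference of -0.72 (SE 0.42). It differed by 1.40 (SE 0.42) in knockout on vehicle, and the test between the 2 did not pass. The median without the pair that stood apart was -0.18, and without nondiabetic replicates 1 or 2 it was -0.22 or -0.57. They are cut from long shared transcripts, so the 13 are not independent. The nuclear subunits of the respiratory chain had 16 of 24 above 0 and a median of 0.09 (0.02 to 0.17 over the alternatives), and the cytosolic ribosomal proteins 19 of 24 and 0.07 (0.01 to 0.13).

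Genes of interferon response and of immune cells were lower in mean in the Akita group. Of 24 tested genes of interferon response and MHC class I, 22 were below 0 and 0 passed, with a median of -0.37. At an unadjusted p under 0.05 there were 6, all lower, while 2% of all tested genes were lower at that level. B2m, the light chain of MHC class I, was at 133 ± 76.1 and 79.2 ± 22.5 TPM, Iigp1, an interferon-induced GTPase, at 12.6 ± 14.6 and 4.87 ± 3.69 TPM, and Bst2, the antiviral tetherin, at 5.14 ± 5.61 and 1.29 ± 1.18 TPM. The list median was -0.35 in wild type on vehicle, -0.07 in knockout on vehicle and -0.14 in wild type on dapagliflozin.

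Markers of macrophages and dendritic cells were lower in mean as well. Of 13 tested, 11 were below 0, and the median was -0.58. At an unadjusted p under 0.05, 3 were lower, while 2% of all tested genes were lower at that level. The summed level of the 13 markers was 454 to 613 TPM in Akita libraries. It was 1304 TPM in nondiabetic replicate 3 and 540 to 687 TPM in the other nondiabetic libraries. None of the 13 was at 0 in more than 1 library of a group. Csf1r, the receptor of a macrophage growth factor, made up much of the sum, with means of 309 TPM in nondiabetic and 336 TPM in Akita libraries. Lyz2, lysozyme of myeloid cells, had lowest, median and highest values of 10.3, 19.3 and 38.1 TPM in nondiabetic and 4.88, 8.25 and 23.4 TPM in Akita libraries. Cd74 and H2-Ab1, of MHC class II, had medians of 92.2 and 62.5 TPM in nondiabetic and 67.4 and 48.9 TPM in Akita libraries. Nondiabetic replicate 3 held 433 TPM of Cd74 and 421 TPM of H2-Ab1, the highest of all 12. Without that library the median was -0.39 for these markers and -0.21 for the interferon list, and without both libraries that stood apart they were -0.56 and -0.26. Leaving it out moved the log2 difference of B2m from -0.61 to -0.37, of Iigp1 from -0.94 to -0.51, of Cd74 from -0.80 to -0.42 and of H2-Ab1 from -0.98 to -0.53. The part of immune cells in the interferon values was not tested. No lymphocyte marker was tested, since 2 of the 5 were under the filter and 3 had no row.

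**Figure D4:**
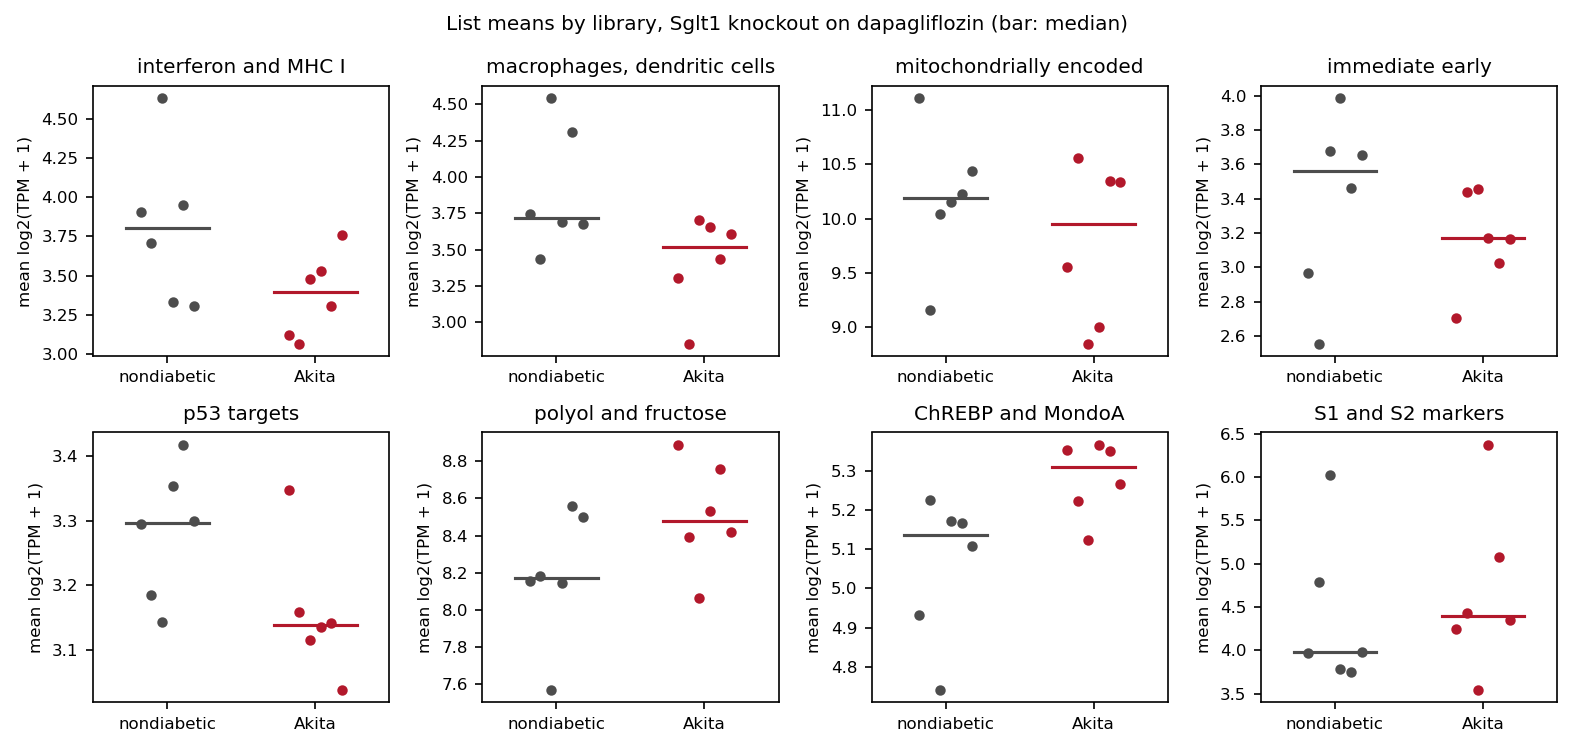
Mean log2(TPM + 1) over the tested members of 8 lists in each of the 12 libraries, grey for nondiabetic and red for Akita, with a bar at each group's median. The groups overlap in all 8 panels, and the means of interferon genes run from 3.31 to 4.63 in nondiabetic and from 3.07 to 3.76 in Akita libraries.

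Stress programmes of the tubule were also lower in mean or near 0. The immediate early response had 3 of 17 above 0 and a median of -0.20 (6 of 17 and -0.13 without nondiabetic replicate 3), with Junb at 16.99 ± 6.70 and 10.1 ± 2.26 TPM. Genes of tubule injury and failed repair had 5 of 13 above 0 and a median of -0.15, which was 0.06 without nondiabetic replicate 3, and the chemokine Ccl2 was at 1.62 ± 0.931 and 0.624 ± 1.01 TPM. BMP and SMAD targets had 2 of 12 above 0 and a median of -0.16. Smad6, an inhibitor of BMP signalling, was at 6.12 ± 4.15 and 3.28 ± 1.63 TPM, and Id1, which fell by 1.69 on the log2 scale in wild type on vehicle, differed by -0.40 (SE 0.39). The difference of Id1 was -0.12 without Akita replicate 4 (-0.26 without nondiabetic replicate 5), and that of Smad6, -0.66, was -0.40 without nondiabetic replicate 3. The integrated stress and unfolded protein response had 9 of 17 above 0 and a median of 0.01, which changed sign under 13 of 24 alternatives, with Ppp1r15a, the phosphatase subunit GADD34, lower in mean at 19.8 ± 3.86 and 14.3 ± 1.73 TPM. Hypoxia-inducible factors and targets had 7 of 16 above 0 and a median of -0.07, which changed sign under 1 alternative, and Car9, a carbonic anhydrase induced by HIF, was at 17.1 ± 8.92 and 36.3 ± 20.4 TPM. Autophagy and lysosome genes had 11 of 16 above 0 and a median of 0.07, which changed sign under 1 alternative.

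**Figure D5:**
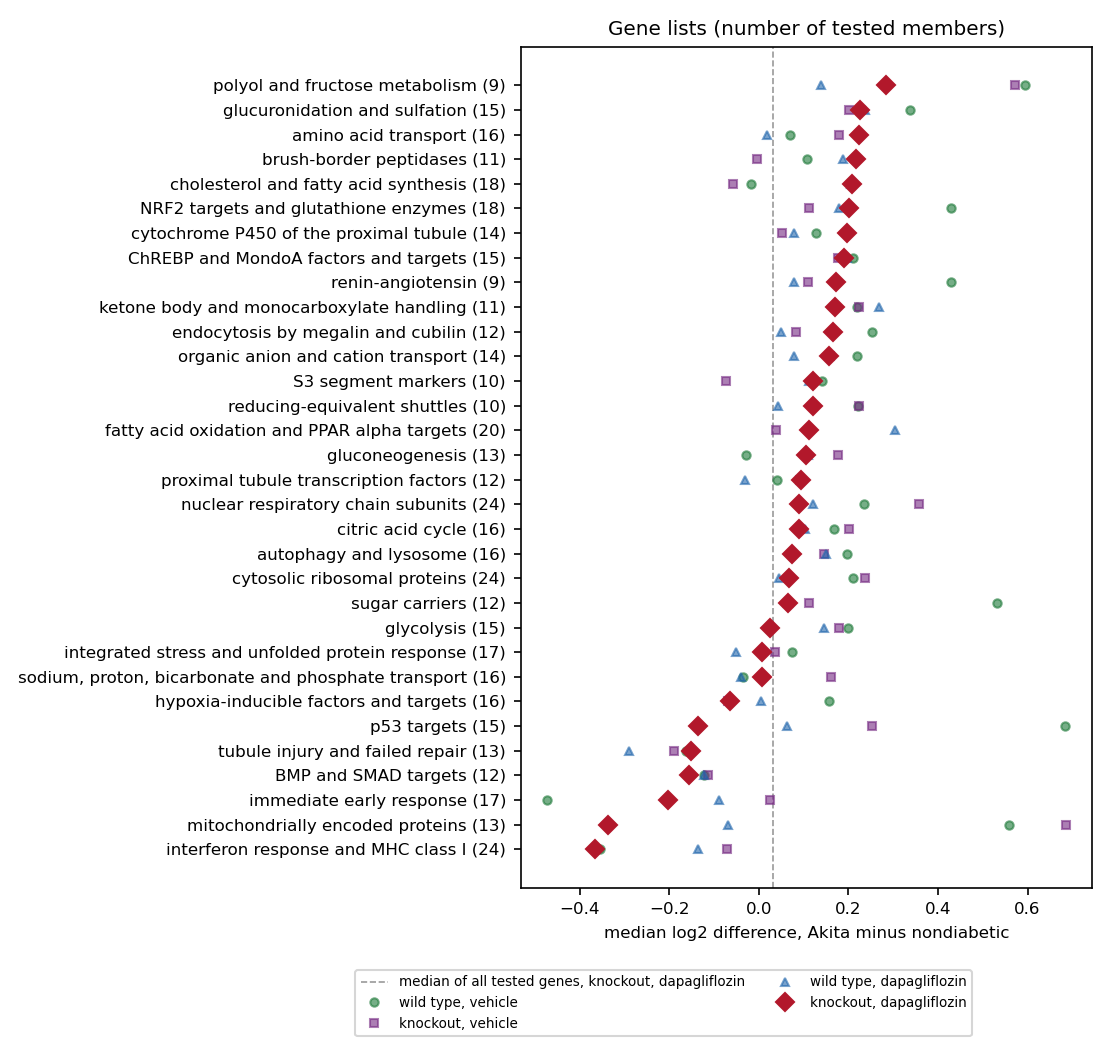
Median log2 difference between Akita and nondiabetic libraries of 32 gene lists (tested members in brackets) in 4 backgrounds, with red diamonds for knockout on dapagliflozin and a dashed line at the median of all tested genes there, 0.03. The red medians run from -0.37 for interferon response to 0.28 for polyol and fructose metabolism, and those of p53 targets and mitochondrially encoded proteins lie below 0 while the green circles of wild type on vehicle lie at 0.68 and 0.56.

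Markers of the other cells that a dissection can carry were compared in the same way, and none passed. Endothelial markers were below 0 in all 10 (median -0.17, or -0.09 without nondiabetic replicate 3), as were the 4 podocyte markers (-0.17). Stroma had 4 of 10 above 0 (-0.05), the thick ascending limb 1 of 5 (-0.23), the distal convoluted tubule 1 of 4 (-0.13), principal cells 1 of 6 (-0.20) and intercalated cells 1 of 5 (-0.13). Each of these 5 medians changed sign under 1 to 3 alternatives. The 4 tested red blood cell markers were above 0 with a median of 1.04, from a summed level of 1.4 to 8.89 TPM in nondiabetic and 3.54 to 67.1 TPM in Akita libraries. Hba-a1 and Hba-a2 are near-identical copies whose reads cannot be told apart. S1 and S2 markers had 8 of 8 above 0 (0.28), a median that was -0.06 without Akita replicate 4. Markers of the whole proximal tubule had 7 of 8 above 0 (0.15), or 4 of 8 with a median of 0.005 without nondiabetic replicate 3. The median of the red blood cell markers was 0.67 without Akita replicate 4.

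The genes with the smallest p for a difference between backgrounds are given as values. Against wild type on vehicle these were led by Ccng1 and Gpd2, above, on the side that was lower here, with Ephx1, the microsomal epoxide hydrolase, at 0.02 (SE 0.33) here and 1.73 (SE 0.33) there. On the side that was higher here stood Tmem129, a ubiquitin ligase of the endoplasmic reticulum, at 0.50 and -0.80, and Nup107, a nucleoporin, at 0.49 and -0.81. Without the pair of libraries that stood apart Tmem129 was at 0.25 here. Against knockout on vehicle, Arv1, a lipid transport protein, was at 1.00 (SE 0.31) here and -0.78 (SE 0.31) there, and the nucleoside carrier Slc29a1 at 0.57 and -1.26. Here Arv1 was at 0.66 without nondiabetic replicate 3, and Slc29a1 at 0.35 without the pair. Against wild type on dapagliflozin, the ubiquitin-conjugating enzyme Ube2e2 was at 0.62 (SE 0.25) here and -0.83 there, and Lad1, ladinin of the basement membrane, at -0.46 (SE 0.14) and 0.24. Lad1 was between 86.1 and 102 TPM in nondiabetic and between 56.0 and 84.6 TPM in Akita libraries of this comparison, with no overlap.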

How the data were processed

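Gene expression was measured by RNA sequencing of laser-dissected S3 tubules from 0.5 ng of RNA per sample. The authors deposited 1 table of log10 TPM with a row per gene, per the file headers. Blank cells (69605 in 52 libraries) were taken as 0, and values were turned back to TPM. The labels list 54 samples, and the 2 others had no column and were not analysed here. The build was GRCm38, per the submitters' processing notes, and the aligner and counter were not given in the sources used here. TPM sums passed 1000000 in 51 of 52 libraries, so the scale is not a plain TPM, the alternatives include another scaling, and the read depth is unknown.

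Symbols and coordinates came from GENCODE vM21 (19033 of 19068 rows matched). The 15424 genes whose mean over the 52 libraries reached 1 TPM were fitted in limma 3.58.1 (R 4.3.3) as log2(TPM + 1). The fit had 1 mean for each of 9 groups, with trended and robust moderation and Benjamini-Hochberg adjustment at 0.05. A log2 difference on this scale understates that of low genes. Differences between backgrounds were contrasts of the same fit. List genes were those of lists by pathway or cell type. The script was tested on simulated data. The genes named are the 10 on each side with the smallest p, a log2 difference of at least 0.5 and a mean of at least 5 TPM in a group, without predicted genes. To these were added the first 10 genes by adjusted p in wild type on vehicle, genes from the first 5 on each side of each difference between backgrounds, and from each list up to 4 members by p and the most abundant one. The p53 targets that passed in wild type on vehicle were named after their values were seen. The members and lists were chosen with earlier results of these data known. Alternatives were another pseudocount, 2 filters, 2 scalings, array weights, 4 covariates, a separate fit of each comparison's own groups and leaving out each of the 12 libraries of the main comparison. Leaving out both libraries that stood apart, and single libraries for list members, was added after the data were seen. Figures were drawn with matplotlib 3.10.9. Some list members are not reported here.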

Additional observations from a re-analysis of the deposited data

Results flagged for a closer look

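In 4 of 68 groups of 6 libraries looked at, the sample at an end lay far from the rest by Dixon's test, where chance gives about 1 in 20. Tbc1d7 was at 1.045 TPM in Akita replicate 4, while the other 5 Akita libraries lay between 3.157 and 4.634 TPM. Cped1 was at 9.024 TPM in nondiabetic replicate 3, against 16.7 to 23.54 TPM in the other 5. Snord58b was at 0 TPM in nondiabetic replicate 3, against 21.32 to 30.27 TPM in the other 5. The number of genes with a value was 16947 in Akita replicate 4 and between 17863 and 18109 in the other 5 Akita libraries. These are the 2 libraries that also had the most Slc5a2.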

How the results depend on the processing

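The count of genes between the Akita and nondiabetic groups was 0 under every alternative except 1. Without nondiabetic replicate 6 it was 1, the gene model 6330415B21Rik inside Ctnna2 (log2 1.45, SE 0.27, limma adjusted p = 0.044), and 966 genes then had an unadjusted p under 0.05. Leaving out each of the 12 libraries of this comparison in turn gave 0 to 1 for this count. No library of the other backgrounds was left out, so their counts moved only through the shared estimate of spread. They were 57 to 72 in wild type on vehicle, 0 to 0 in knockout on vehicle and 1 to 1 in wild type on dapagliflozin. Each difference between backgrounds gave 0 to 0, with libraries left out on this side only. How those counts depend on their own libraries was not tested. The 60 genes of wild type on vehicle were 36 after rescaling without mitochondrial rRNA, 143 with the library number as a covariate and 34 when its 2 groups were fitted by themselves. Such a separate fit gave 1 in knockout on vehicle and 0 in wild type on dapagliflozin. The latter was also 0 with a pseudocount of 0.1 TPM, 0 with the other-cell score as a covariate and 2 with array weights. Of 691 values of 29 named genes over 24 alternatives, 687 kept their direction and 0 passed. The other 4 were Ccng1, at -0.035 with array weights, -0.001 with the other-cell score, -0.008 without nondiabetic replicate 3 and -0.001 without both libraries that stood apart; the cause was not tested. Median list differences stayed between 0.17 and 0.37 for polyol and fructose metabolism, -0.51 and -0.21 for interferon response and -0.57 and -0.18 for mitochondrially encoded proteins. No paired analysis was possible because the labels give no replicate number shared between groups. Depth is unknown, so no limit on low genes could be set from reads.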
